A study of Mus musculus with 20 samples.

Results

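The genes described here are 10 genes of the lipid droplet in mouse liver, namely the perilipin coat genes *Plin2*, *Plin4* and *Plin5*, the CIDE genes *Cidea*, *Cideb* and *Cidec*, the lipases *Pnpla2* and *Pnpla3*, and the lipase inhibitors *G0s2* and *Hilpda*. They were chosen by name from the 54532 genes of the count table, and all 10 were found in it. Of the 10, 9 passed the filter on low counts (at least 2 CPM, the reads of a gene scaled to a common library total, in at least 3 mice), and *Pnpla3* did not. Liver RNA of 20 male C57BL/6 mice was sequenced, with 1 library per mouse and 5 mice in each of 4 groups. Before surgery, all mice had spent 12 weeks on a high-fat diet (HFD) and were obese. Sham Chow mice then had a sham operation and 8 weeks of chow, and RYGB Chow mice Roux-en-Y gastric bypass (RYGB, which reroutes the small intestine to a small stomach pouch) and the same chow. Sham HFD and RYGB HFD mice had the same operations and 8 weeks of HFD. The liver samples were drawn at random within each group of an earlier cohort. The study describes Sham HFD mice as heavier than those of the other groups, so body weight and the combination of sham surgery with HFD cannot be told apart in this group. The study describes the livers as taken from fasted mice.

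A lipid droplet is a store of triglyceride and cholesteryl ester inside the cell, wrapped in a single layer of phospholipid that carries proteins. Perilipins coat this surface and limit the access of lipases, CIDE proteins sit where droplets touch and pass lipid from the smaller to the larger droplet, and lipases release fatty acids from the core. PNPLA2, also called ATGL, takes the first fatty acid off triglyceride, ABHD5 activates it, and G0S2 and HILPDA inhibit it. In hepatocytes PLIN2 is the main droplet coat, PLIN5 is more typical of tissues that burn fat, and PLIN4, CIDEA and CIDEC are better known from fat cells and appear in fatty liver.

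Promoter sequences of members that passed a test, and of those holding the letters AGGTCA, are shown first, except that of *Cidea*, which had no entry. They are from RefSeq on GRCm38.p6, where 9 of the 10 members had an entry, with 12 transcription starts in all. Each is the stretch of up to 250 bases upstream of the start that lies outside annotated exons, 5′ to 3′ on the strand of the gene, and capitals mark the letters AGGTCA or, on the opposite strand, its reverse complement. *Cidec*, *Plin4* and *Pnpla2* are shown because they differed between groups, and *Plin2* and *Plin5* because they hold AGGTCA, the hexamer that nuclear receptors such as the PPARs recognise.
*Cidec*, first start, chr6:113435761-113436010, minus strand: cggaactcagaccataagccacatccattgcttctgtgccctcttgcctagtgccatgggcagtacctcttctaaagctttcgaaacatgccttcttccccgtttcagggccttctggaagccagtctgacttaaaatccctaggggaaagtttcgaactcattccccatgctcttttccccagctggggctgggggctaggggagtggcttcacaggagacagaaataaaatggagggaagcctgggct
*Cidec*, second start, chr6:113434765-113435014, minus strand: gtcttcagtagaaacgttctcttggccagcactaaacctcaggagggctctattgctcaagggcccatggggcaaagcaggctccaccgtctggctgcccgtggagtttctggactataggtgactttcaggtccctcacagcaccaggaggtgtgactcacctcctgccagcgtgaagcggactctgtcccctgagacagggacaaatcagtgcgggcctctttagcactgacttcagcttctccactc
*Plin4*, chr17:56109804-56110032, minus strand: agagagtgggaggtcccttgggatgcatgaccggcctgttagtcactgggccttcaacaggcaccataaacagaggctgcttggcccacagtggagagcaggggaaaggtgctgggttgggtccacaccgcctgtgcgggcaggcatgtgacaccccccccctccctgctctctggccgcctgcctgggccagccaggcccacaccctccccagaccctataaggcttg
*Pnpla2*, chr7:141454938-141455187, plus strand: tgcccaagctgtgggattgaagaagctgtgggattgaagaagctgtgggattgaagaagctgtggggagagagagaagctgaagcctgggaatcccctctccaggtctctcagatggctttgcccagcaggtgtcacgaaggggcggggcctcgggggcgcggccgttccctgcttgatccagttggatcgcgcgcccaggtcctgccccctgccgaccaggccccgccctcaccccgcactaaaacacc
*Plin2*, chr4:86670061-86670309, minus strand: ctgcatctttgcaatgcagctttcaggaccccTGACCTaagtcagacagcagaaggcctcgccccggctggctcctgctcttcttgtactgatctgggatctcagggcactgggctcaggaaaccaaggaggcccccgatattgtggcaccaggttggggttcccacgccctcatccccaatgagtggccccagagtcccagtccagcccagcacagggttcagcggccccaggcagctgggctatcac
*Plin5*, chr17:56117597-56117798, minus strand: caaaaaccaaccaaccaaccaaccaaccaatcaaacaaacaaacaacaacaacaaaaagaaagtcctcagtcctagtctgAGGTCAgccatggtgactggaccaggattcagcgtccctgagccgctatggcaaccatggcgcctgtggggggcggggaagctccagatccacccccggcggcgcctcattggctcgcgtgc
Searched on both strands of these windows, AGGTCA was found in *Plin2*, on the opposite strand from 213 to 218 bases upstream of the start, and in *Plin5*, from 165 to 170 bases upstream. It is a common word, present in 14% of 32851 mouse promoters of the same length. The PPAR element, which is AGGTCA repeated after a spacer of 1 base and is present in 0.0335% of all promoters, was found in 0 of the members' windows, as was GTAAACA (a FOXO site, 3.17% of promoters). ACGTG, the core of the hypoxia response element and present in 16.6% of promoters, lay 39 to 43 bases upstream of the second *Hilpda* start, inside an exon of a transcript from the first start. TATAAA (12.4% of promoters) lay 167 to 172 bases upstream of *Cideb*. The windows of *Cidec*, *Plin4* and *Pnpla2* held none of these 5 words.

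On GRCm38 (mm10), *Plin4* (ENSMUSG00000002831, chromosome 17 from 56100591 to 56109803) and *Plin5* (ENSMUSG00000011305, chromosome 17 from 56111601 to 56117596) are neighbours on the minus strand. *Cidec* (ENSMUSG00000030278) covers chromosome 6 from 113424634 to 113435760, *Pnpla2* (ENSMUSG00000025509) chromosome 7 from 141455198 to 141460743, and *Plin2* (ENSMUSG00000028494) chromosome 4 from 86648386 to 86670060. *Cideb* (ENSMUSG00000022219, chromosome 14 from 55754050 to 55758458) shares 1136 of its 1488 exon bases with *Nop9* on the opposite strand. The libraries kept strand, but the strand setting of the counting is not given in the sources used here, so the counts of *Cideb* are uncertain. Group means of *Nop9* were 18.7 CPM in Sham HFD, 22.4 in RYGB HFD, 23.6 in Sham Chow and 24.4 in RYGB Chow. *Plin4* shares 17 exon bases with *Hdgfl2*, and *G0s2* lies opposite *Lamb3* without a shared exon base.

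The libraries held 14604854 to 22537498 counted reads (median 19056997), and all values below are CPM scaled with TMM factors, which lay between 0.916 and 1.13. Intervals and floors cover the spread between mice or counting error only, since the reads carry no molecular identifiers. No batch is named in the labels, and no values within batches are given. In bulk liver, fewer cells of a type and less RNA per cell cannot be told apart. The sum of 10 hepatocyte markers lay between 84709 and 96439 CPM in Sham HFD, below all Sham Chow (97145 to 116207) and RYGB HFD mice (116730 to 137293), and between 86639.7 and 137892 in RYGB Chow. One library stood apart in tissue content: Sham HFD replicate 4 held 398 CPM of 10 skeletal muscle markers, against at most 1.39 in every other mouse. Sham Chow replicate 2 stood apart from its group in several members, as given below, and values without 1 of these mice are given where they changed a call.

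Levels of different genes can be compared only per length of exon. On the scale of CPM per kilobase of exon, *Plin2* was the highest of the 10 members in every group mean, from 231 in RYGB HFD to 272 in Sham HFD. *G0s2* followed with group means from 112 in RYGB HFD to 179 in Sham HFD. *Pnpla2* (30.0 to 50.8), *Plin5* (24.7 to 44.9) and *Cideb* (28.5 to 35.3) lay close together. *Cidec* ran from 6.06 to 38.4, *Plin4* from 4.47 to 12.9 and *Cidea* from 1.20 to 17.7, with the Sham HFD mean the highest for each of these genes. *Hilpda* (1.73 to 2.1) and *Pnpla3* (0.141 to 0.451) were the lowest.

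**Figure D1:**
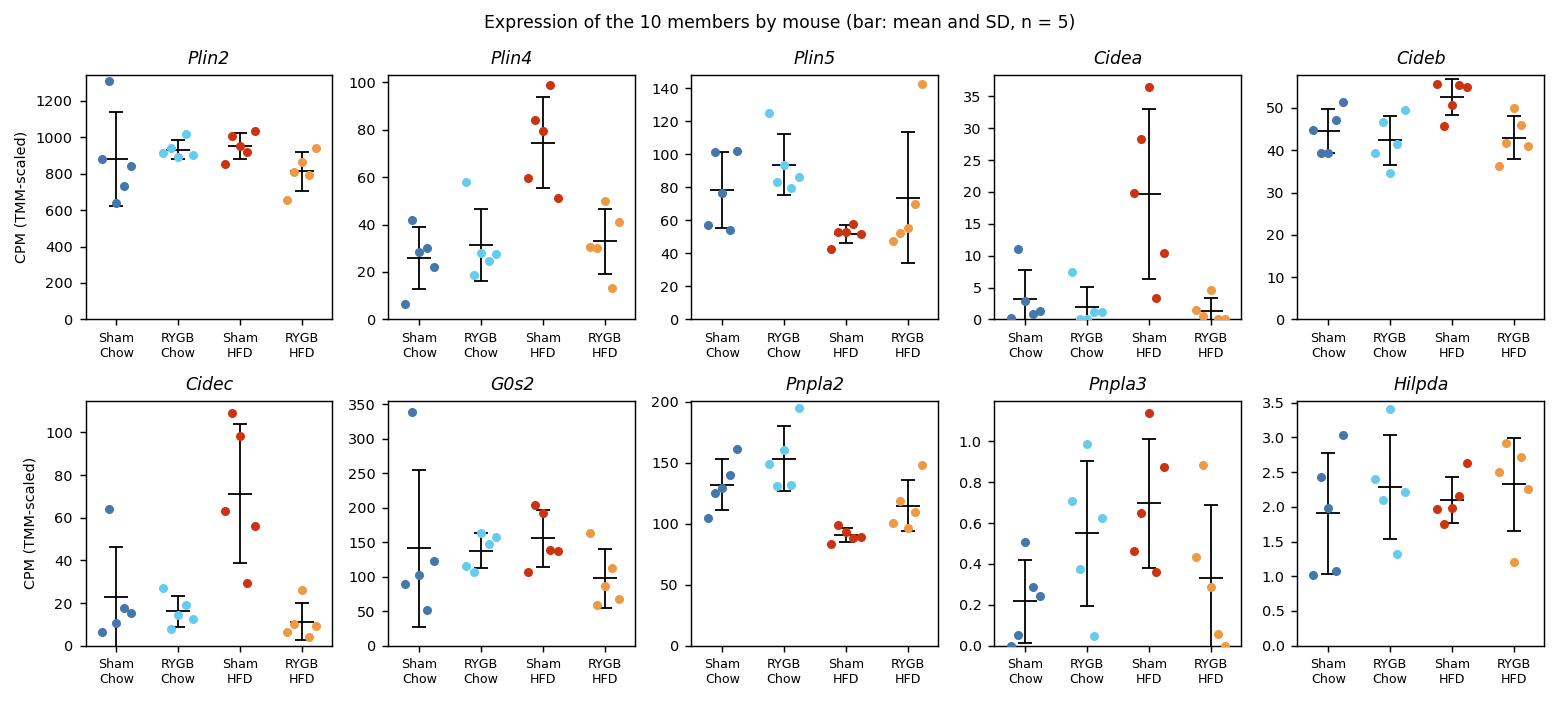
Expression of each of the 10 members in CPM (linear axis from 0, scaled separately for each gene) in the 5 mice of each group, with points for mice and bars for the mean and SD (n = 5). The 5 Sham HFD mice lie above all Sham Chow and all RYGB HFD mice in *Plin4*, and below all Sham Chow mice in *Pnpla2*, while *Plin2* overlaps in all groups.

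As a share of CPM per kilobase over *Plin1* to *Plin5*, *Plin2* held 83.2% ± 1.77 (SD, n = 5) in Sham HFD and between 80.4% and 81.2% in the other group means. *Plin4* held 3.97% ± 0.990 in Sham HFD, against 1.47% ± 0.693 in Sham Chow, 1.64% ± 0.754 in RYGB Chow and 1.99% ± 0.760 in RYGB HFD. *Plin5* held its lowest mean share, 7.58% ± 0.594, in Sham HFD, against 12.4% ± 3.10 in Sham Chow, 13.6% ± 2.50 in RYGB Chow and 11.8% ± 4.23 in RYGB HFD. Of the neighbouring genes, *Plin4* thus had its highest and *Plin5* its lowest group mean share in Sham HFD. Among the CIDE genes, *Cideb*, which serves the lipid loading of very-low-density lipoprotein, held 42.4% ± 16.3 in Sham HFD and between 71.4% and 81.7% in the other group means. *Cidec* held 40.2% ± 8.50 and *Cidea* 17.4% ± 8.63 in Sham HFD, against at most 23.3% and 5.32% in the means of the other groups. The level of *Cideb* itself was highest in Sham HFD, at a mean of 35.3 CPM per kilobase against 28.5 to 29.9 in the other groups. Its smaller share there thus went with higher *Cidec* and *Cidea*. Sham Chow replicate 2, with 37.4% *Cideb* and 48.7% *Cidec*, lay inside the Sham HFD range of both shares. These shares are descriptions, with no test.

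**Figure D2:**
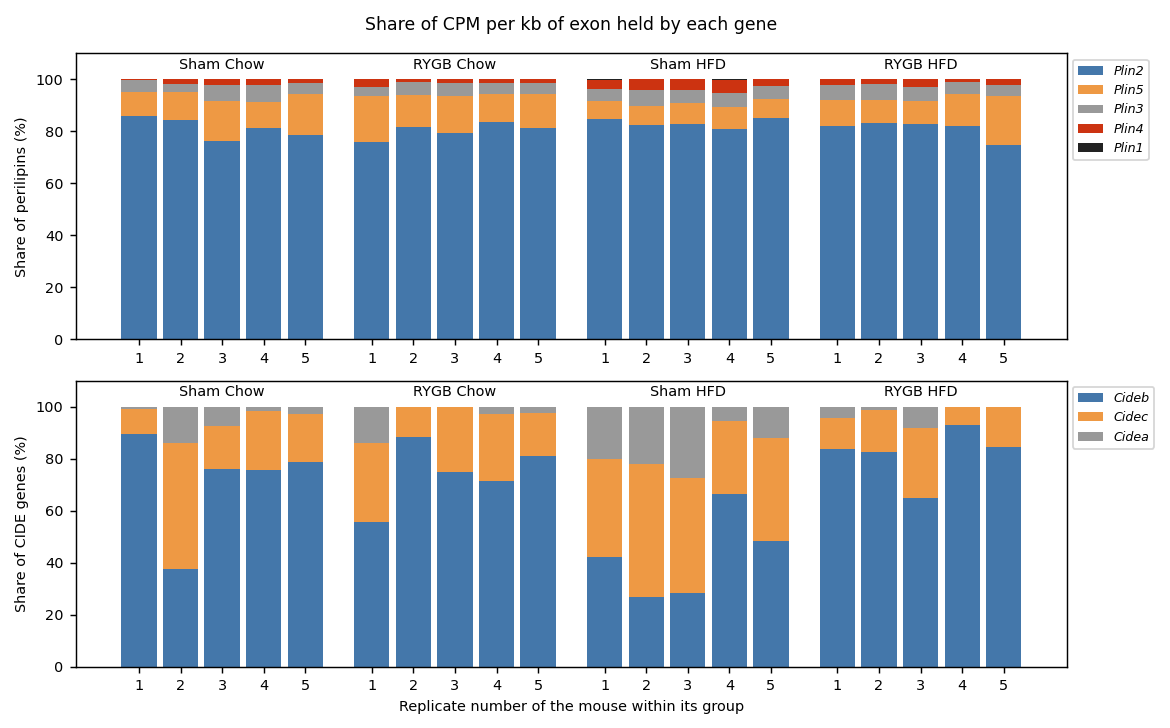
Share (%) of CPM per kilobase of exon held by each perilipin (top) and each CIDE gene (bottom) in each of the 20 mice, ordered by group and replicate number. The *Plin4* segment is widest in Sham HFD (mean 3.97%), where *Cidea* and *Cidec* together also take most of the CIDE bar in 4 of 5 mice.

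The first comparison, Sham Chow vs. Sham HFD, addressed what staying on HFD did in mice without bypass. *Plin4* and *Cidec* were higher in Sham HFD and *Pnpla2* was lower, while *Plin2*, the most abundant coat gene, was not called. Of the 9 members tested, 2 were called higher and 1 lower at an adjusted p under 0.05 (edgeR quasi-likelihood test over all genes), where 10.9% of the 12289 tested genes were called higher and 10.7% lower (21.6% in either direction). The members' median log2 fold change was 0.14, against -0.0047 over all tested genes. Scaled by library size alone, the median over all genes moved to 0.12 and the calls over all genes from 1337 higher and 1319 lower to 2279 and 554.

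*Plin4*, a coat protein of small droplets, was at 6.37, 42.1, 28.3, 30.2 and 22.2 CPM in Sham Chow replicates 1 to 5 and at 59.6, 84.3, 79.4, 98.7 and 51.2 in Sham HFD. Every Sham HFD mouse lay above every Sham Chow mouse, with means of 25.8 ± 13.1 and 74.7 ± 19.2 (SD, n = 5). Sham HFD was 2.89-fold higher, a log2 fold change of 1.53 with an adjusted p of 0.00723 (standard error 0.38), which was called in all 20 fits without 1 mouse and in all 9 other settings. *Plin5*, its neighbour, ranged from 54.2 to 102 CPM in Sham Chow and from 42.6 to 57.7 in Sham HFD, and the groups overlapped. It differed by -0.60 on the log2 scale (standard error 0.25, adjusted p = 0.0849), and it was called with DESeq2 (adjusted p = 0.0490) and in a model of only the 2 groups (adjusted p = 0.0227). It was also called without RYGB HFD replicate 5 (adjusted p = 0.0159), a mouse outside this comparison with a *Plin5* level of 143 CPM that enters the shared estimate of spread. *Plin2* was at 879, 1310.3, 639.7, 735 and 843 CPM in Sham Chow and at 854, 1007, 952, 920.1 and 1035 in Sham HFD. The Sham HFD values lay inside the range of Sham Chow, and the log2 fold change was 0.11 (95% interval -0.17 to 0.40, adjusted p = 0.583). Without Sham Chow replicate 2, the mouse at 1310.3, it was 0.30 (adjusted p = 0.0436).

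*Cidec*, the fat-specific protein that enlarges droplets, was at 6.23, 64.0, 10.5, 17.6 and 15.2 CPM in Sham Chow and at 63.0, 109, 98.4, 29.2 and 56.1 in Sham HFD. Except for Sham Chow replicate 2, all Sham Chow mice lay below all Sham HFD mice. The log2 fold change was 1.65 (standard error 0.53, adjusted p = 0.0314), a 3.14-fold difference. The call was lost without any of Sham Chow replicates 1, 3, 4 or 5 or Sham HFD replicates 2 or 3 (adjusted p from 0.0636 to 0.0805), and without Sham Chow replicate 2 the log2 fold change was 2.54. *Cidea*, which has the same role in droplet growth, was at 0.290, 11.0, 2.91, 0.785 and 1.33 CPM in Sham Chow and at 19.9, 28.3, 36.5, 3.35 and 10.4 in Sham HFD. The groups overlapped because of Sham Chow replicate 2 and Sham HFD replicates 4 and 5. The difference of 2.58 on the log2 scale (standard error 0.96, adjusted p = 0.0589) was called in 5 of the 20 fits without 1 mouse, among them those without Sham Chow replicate 2 (3.85, adjusted p = 0.0146) or Sham HFD replicate 4 (2.85, adjusted p = 0.0472). It was also called in 5 of the 9 other settings, with limma-voom (adjusted p = 0.0283), library size alone (0.0470), no filter (0.0421), only the 2 groups (0.0250) and both of these mice left out (0.0115). *Cideb* ranged from 39.4 to 51.5 CPM in Sham Chow and from 45.8 to 55.7 in Sham HFD, and differed by 0.24 on the log2 scale (standard error 0.10, adjusted p = 0.0970). With library size alone it was 0.37 (adjusted p = 0.00478).

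*Pnpla2*, the lipase that starts triglyceride breakdown, was at 105, 125, 129, 140.1 and 161 CPM in Sham Chow and at 83.3, 99.1, 93.1, 88.1 and 89.4 in Sham HFD. Every Sham HFD mouse lay below every Sham Chow mouse, and the spread in Sham HFD was small (SD 5.92). The log2 fold change was -0.54 (standard error 0.13, adjusted p = 0.00472), and it was called in all 20 fits without 1 mouse and in all 9 other settings. Its inhibitor *G0s2* was at 89.2, 339, 102, 51.5 and 123 CPM in Sham Chow and at 106, 204, 192, 139 and 138 in Sham HFD, so that Sham Chow replicate 2 was the highest of both groups. The log2 fold change was 0.14 (95% interval -0.61 to 0.90, adjusted p = 0.809). *Hilpda*, the other inhibitor, ranged from 1.01 to 3.03 CPM in Sham Chow and from 1.76 to 2.63 in Sham HFD (log2 fold change 0.14, 95% interval -0.49 to 0.76). The groups that did not overlap were those of *Plin4*, higher (8.48% of all tested genes), and *Pnpla2*, lower (8.06%).

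Sham HFD vs. RYGB HFD addressed what bypass did in mice kept on HFD. *Cidec*, *Cidea* and *Plin4* were lower in RYGB HFD, and 0 members were called higher. Thus 3 of the 9 members tested were called lower, where 7.9% of all tested genes were, against 8.54% called higher and 16.4% in either direction. At an unadjusted p under 0.05 a single member, *Pnpla2*, was higher, and DESeq2 and limma-voom also called 0 higher. The members' median log2 fold change was -0.29, against 0.0095 over all tested genes. With library size alone the calls over all genes moved from 1050 higher and 971 lower to 542 and 1497. The 5 Sham HFD mice enter this comparison and the one above, so opposite directions in the 2 comparisons rest in part on the same mice.

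*Cidec* was at 6.53, 10.1, 26.0, 4.20 and 9.44 CPM in RYGB HFD replicates 1 to 5, and all 5 lay below the lowest Sham HFD mouse (29.2). The means were 71.2 ± 32.6 in Sham HFD and 11.3 ± 8.58 in RYGB HFD (SD, n = 5). The log2 fold change was -2.66 (standard error 0.56, adjusted p = 0.00245), a level 6.33-fold lower. *Cidea* was at 1.41, 0.521, 4.67, 0.0591 and 0 CPM in RYGB HFD, where the last values stand for 1 and 0 counts and a count of 0 allows up to 3. Only RYGB HFD replicate 3, at 4.67, exceeded the lowest Sham HFD mouse. Its log2 fold change was -3.87 (standard error 1.05, adjusted p = 0.0149), with means of 19.7 ± 13.3 and 1.33 ± 1.95. Both genes were called in all 20 fits without 1 mouse and in all 9 other settings, with log2 fold changes from -3.24 to -2.45 for *Cidec* and from -5.22 to -3.53 for *Cidea* over the fits without 1 mouse. *Cideb* ranged from 36.4 to 49.9 CPM in RYGB HFD (log2 fold change -0.29, standard error 0.10, adjusted p = 0.0603). It was called in 4 of the 20 fits without 1 mouse and in 4 of the 9 other settings. These settings were DESeq2 (adjusted p = 0.0422), library size alone (-0.38, adjusted p = 0.00449), a minimum of 5 CPM (0.0409) and only the 2 groups (0.0358).

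*Plin4* was at 30.6, 30.1, 49.9, 13.3 and 41.1 CPM in RYGB HFD, all below the lowest Sham HFD mouse (51.2). *Plin4* was 2.26-fold lower after bypass (log2 fold change -1.18, standard error 0.38, adjusted p = 0.0357). The call was lost without any of Sham HFD replicates 2, 3 or 4 or RYGB HFD replicates 1, 2 or 4 (adjusted p from 0.0634 to 0.0883, and -1.06 with 0.0819 without Sham HFD replicate 4). It was also lost with the replicate number as a block (adjusted p = 0.0639). The same held with Sham HFD replicate 4 and Sham Chow replicate 2 left out together (-1.07, adjusted p = 0.0682). The members without overlap were *Plin4* and *Cidec*, both lower, as were 7.43% of all tested genes, while 7.25% lay wholly higher. *Plin5* was at 47.5, 52.1, 55.6, 70.1 and 143 CPM in RYGB HFD, and 1 mouse set most of the spread (SD 39.7). Its difference of 0.51 on the log2 scale (95% interval -0.0025 to 1.02, adjusted p = 0.165) was 0.13 without that mouse. *Plin2* ranged from 654 to 943 CPM in RYGB HFD, overlapping with Sham HFD (log2 fold change -0.23, 95% interval -0.52 to 0.055).

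*Pnpla2* was at 101, 119, 96.6, 109 and 148 CPM in RYGB HFD, and 1 of these mice lay below the highest Sham HFD mouse (99.1). It differed by 0.34 on the log2 scale (standard error 0.13, adjusted p = 0.0709), and it was called in a model of only the 2 groups (adjusted p = 0.0413) and without RYGB HFD replicate 3 (adjusted p = 0.0467) or RYGB Chow replicate 5 (adjusted p = 0.0471). *G0s2* was at 164, 58.3, 87.0, 112 and 67.1 CPM in RYGB HFD against 106 to 204 in Sham HFD (log2 fold change -0.67, standard error 0.36, adjusted p = 0.219). *Hilpda* ranged from 1.21 to 2.92 CPM in RYGB HFD, with a log2 fold change of 0.15 (95% interval -0.47 to 0.77).

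**Figure D3:**
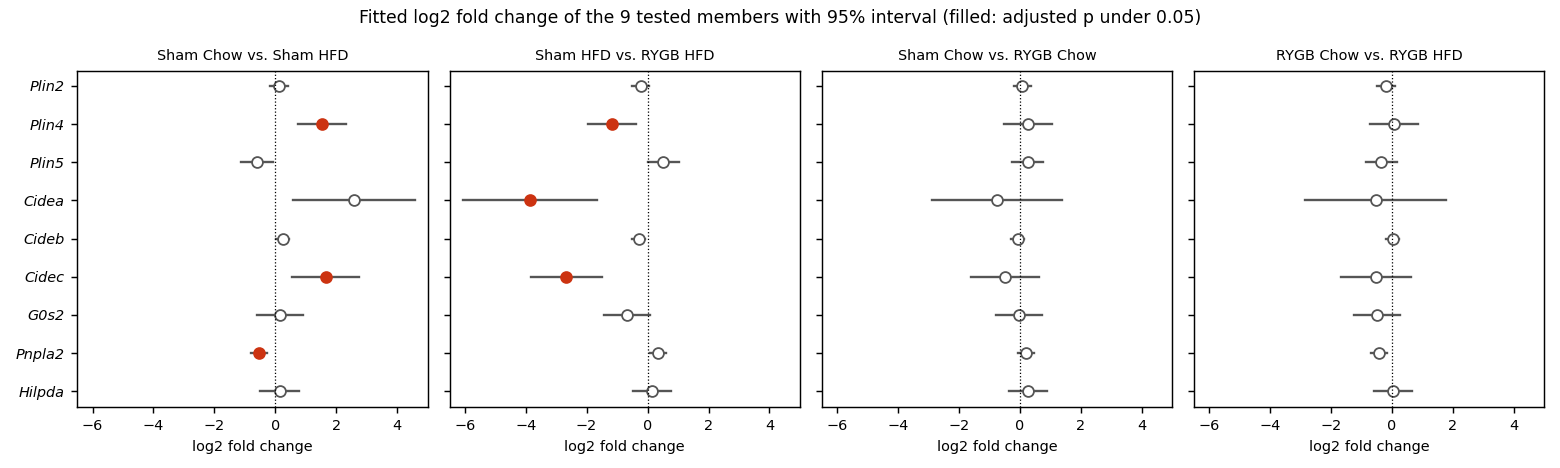
Fitted log2 fold change (second group over first) of the 9 tested members in the 4 contrasts, with 95% intervals, and filled points for an adjusted p under 0.05. *Plin4* and *Cidec* lie above 0 and *Pnpla2* below 0 in Sham Chow vs. Sham HFD, *Cidec*, *Cidea* and *Plin4* lie below 0 in Sham HFD vs. RYGB HFD, and no point is filled in the other contrasts.

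Fat cells express *Plin4*, *Cidea* and *Cidec* strongly, so fat cell markers are given beside them. Of 12 adipocyte markers, 11 had at least 1 count and 4 could be tested, of which 1, the member *Cidea*, was called in Sham HFD vs. RYGB HFD and 0 in Sham Chow vs. Sham HFD, where 2 had an unadjusted p under 0.05. The defining markers *Adipoq* and *Plin1* were at 0 in 17 and 14 of the 20 mice. They reached at most 0.870 and 2.26 CPM, both in Sham HFD replicate 1. *Lep* and *Retn* were at 0 in 19 and 17 mice, and all their reads came from Sham HFD mice. *Lep* held 16 counts in replicate 4, and *Retn* held 11, 2 and 4 counts in replicates 1, 3 and 4. *Adipoq* held 15 and 14 counts in Sham HFD replicates 1 and 4, and 1 count in RYGB HFD replicate 5. *Adipoq* was at 0 in 3 of the 5 Sham HFD mice, replicates 2, 3 and 5. There *Cidec* was at 109, 98.4 and 56.1 CPM, *Cidea* at 28.3, 36.5 and 10.4, and *Plin4* at 84.3, 79.4 and 51.2. In Sham HFD replicates 1 and 4, which held *Adipoq* counts, *Cidec* was at 63.0 and 29.2 CPM, *Cidea* at 19.9 and 3.35, and *Plin4* at 59.6 and 98.7. The part of fat cells in the levels of the members was not tested. The sum of the list was carried by *Car3*, which hepatocytes express as well, and ran from 3010.3 to 4379 CPM in Sham HFD, 1658 to 3082 in RYGB HFD, 2770.2 to 3431 in Sham Chow and 1165 to 3492 in RYGB Chow. Without *Car3* and the member *Cidea*, the sum ran from 8.92 to 24.2 CPM in Sham HFD, 6.48 to 13.9 in Sham Chow and 7.41 to 15.6 in RYGB Chow. In RYGB HFD it ran from 14.8 to 34.3 CPM and overlapped with Sham HFD (medians 16.6 and 15.2), and *Cfd* alone reached 24.4 and 12.5 CPM in RYGB HFD replicates 1 and 3.

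Markers of other cell types differed between the same groups for some types and not for others. Of 11 stellate cell markers tested, 10 were called higher in Sham Chow vs. Sham HFD and 4 lower in Sham HFD vs. RYGB HFD, with summed levels of 399 to 489 CPM in Sham HFD, 276 to 438 in RYGB HFD, 190.3 to 299.9 in Sham Chow and 243 to 338 in RYGB Chow. Of 12 macrophage markers, 10 were called higher and 1 lower in Sham Chow vs. Sham HFD and 1 lower in Sham HFD vs. RYGB HFD, with sums of 296 to 397, 272 to 454, 134 to 308 and 260.2 to 578 CPM in the 4 groups in the same order. Of 10 hepatocyte markers, 5 were called lower in Sham Chow vs. Sham HFD, and 7 higher and 1 lower in Sham HFD vs. RYGB HFD. Of 8 endothelial markers, 0 were called in either comparison with edgeR, although 1 had an unadjusted p under 0.05 in each, and their sums lay between 159.9 and 518 CPM in all mice, and 3 biliary and gut epithelial markers of 8 could be tested, of which 1 was called higher in each. The part of these cell types in the differences of the members was not tested.

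Sham Chow vs. RYGB Chow addressed what bypass did once the mice were back on chow. Of the 9 members tested, 0 were called with edgeR, 0 had an unadjusted p under 0.05, and 0 were called with DESeq2 or limma-voom. Over all tested genes 0.0488% were called higher and 0.00814% lower, 0.057% in all. All 9 members overlapped between the groups, where 0.74% of all genes lay wholly higher and 0.594% wholly lower. The intervals were narrow for *Plin2* (log2 fold change 0.08, 95% interval -0.20 to 0.37), *Cideb* (-0.07, -0.28 to 0.15) and *Pnpla2* (0.22, -0.047 to 0.48). They were wide for *Cidea* (-0.75, -2.87 to 1.37) and *Cidec* (-0.49, -1.61 to 0.63), which stood high in Sham Chow replicate 2, and in *Cidea* also in RYGB Chow replicate 1 at 7.46 CPM. *Cidec* in RYGB Chow was at 27.1, 7.76, 14.4, 19.0 and 12.6 CPM, and *Plin4* at 57.8, 18.9, 28.1, 24.7 and 27.6, where 1 mouse lay apart from the other 4.

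RYGB Chow vs. RYGB HFD addressed the diet after bypass. Of the 9 members tested, 0 were called with edgeR, where 3.65% of all tested genes were (1.99% higher and 1.65% lower). All 9 overlapped between the groups, where 2.64% of all genes lay wholly higher and 2.41% wholly lower. *Pnpla2* alone had an unadjusted p under 0.05. It was at 149, 131, 160.2, 131 and 195 CPM in RYGB Chow, and 4 of the 5 RYGB HFD mice lay below all of these. Its log2 fold change was -0.42 (standard error 0.13, adjusted p = 0.0708). DESeq2 called it lower (adjusted p = 0.0289) and limma-voom called 0 members. Without RYGB HFD replicate 5, *Pnpla2* (-0.53, adjusted p = 0.0206) and *Plin5* (-0.73, adjusted p = 0.0290) were called lower. *Plin4* (0.07, 95% interval -0.71 to 0.85) and *Cidec* (-0.52, 95% interval -1.67 to 0.63), which differed by diet in sham mice, did not pass here.

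Whether the diet difference itself differed between sham and RYGB mice was tested as a surgery by diet interaction in the same model. Of the 9 members, 0 were called with edgeR, where 5.06% of all tested genes were (2.48% higher and 2.58% lower), and 3 had an unadjusted p under 0.05. These were *Cidec* (-2.17, standard error 0.76, adjusted p = 0.104), *Plin4* (-1.46, standard error 0.53, adjusted p = 0.116) and *Cidea* (-3.12, standard error 1.45, adjusted p = 0.225). DESeq2 called 0 members and limma-voom called *Cidec* (adjusted p = 0.0482). A smaller diet difference after bypass was therefore not shown for these genes with edgeR or DESeq2 in the model of all mice. Without Sham Chow replicate 2, *Cidec* (-3.06, adjusted p = 0.00741), *Plin2* (-0.50, adjusted p = 0.0403) and *G0s2* (-1.26, adjusted p = 0.0498) were called lower, and without RYGB HFD replicate 3 *Cidec* alone was (-2.74, adjusted p = 0.0387). With library size alone, the calls over all genes moved from 305 higher and 317 lower to 151 and 597, and the median over all genes from 0.016 to -0.13.

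*Pnpla3*, a hydrolase of triglyceride and retinyl ester that lipogenic signals induce, held 176 counts over all 20 mice and at most 27 in any of them. It was at 0.464, 0.647, 1.14, 0.359 and 0.877 CPM in Sham HFD, at 0.435, 0.885, 0.288, 0.0591 and 0 in RYGB HFD, at 0, 0.0517, 0.509, 0.286 and 0.242 in Sham Chow and at 0.708, 0.377, 0.989, 0.0489 and 0.623 in RYGB Chow. The groups overlapped in every contrast. On log2(CPM + 0.5) the mean was 0.75 higher in Sham HFD than in Sham Chow (exact permutation test, two-sided p = 0.0238, where 5 mice against 5 allow no p below 0.00794). The exact p-values were 0.135 in Sham Chow vs. RYGB Chow, 0.103 in Sham HFD vs. RYGB HFD and 0.357 in RYGB Chow vs. RYGB HFD, and no adjustment over the 4 contrasts was made. At 0 to 27 counts per mouse, smaller differences were not detectable at this depth.

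Between mice of 1 group the members differed widely in spread. The coefficient of variation was between 5.36% and 29.2% for *Plin2* and between 8.15% and 13.8% for *Cideb*, but between 45.2% and 103% for *Cidec* and between 67.6% and 159% for *Cidea*. To see which members varied together, the group mean of log2(CPM + 0.5) was subtracted and the 36 pairs of the 9 tested members were correlated over the 20 mice. *Cidea* and *Cidec* had Pearson's r = 0.82 (permutation p = 6.0e-05, adjusted p = 0.00216) and Spearman's rho = 0.74 (permutation p = 0.00106, adjusted p = 0.0382). Without the 2 mice farthest from the median of *Cidea*, r was 0.75. Mice high for their group in *Cidea*, such as Sham Chow replicate 2, RYGB Chow replicate 1 and RYGB HFD replicate 3, were also high in *Cidec*. This was the only pair of the 36 past the threshold after adjustment. *Plin4* with *Cidec* had r = 0.70 (permutation p = 0.00785, adjusted p = 0.141) and rho = 0.60, and *Plin4* with *Cidea* r = 0.59 (permutation p = 0.0146, adjusted p = 0.175). *Plin2*, the coat gene of highest level, had r = 0.54 with *Cidec* and 0.21 with *Cidea*, and *Pnpla2* with its inhibitor *G0s2* had r = -0.06.

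**Figure D4:**
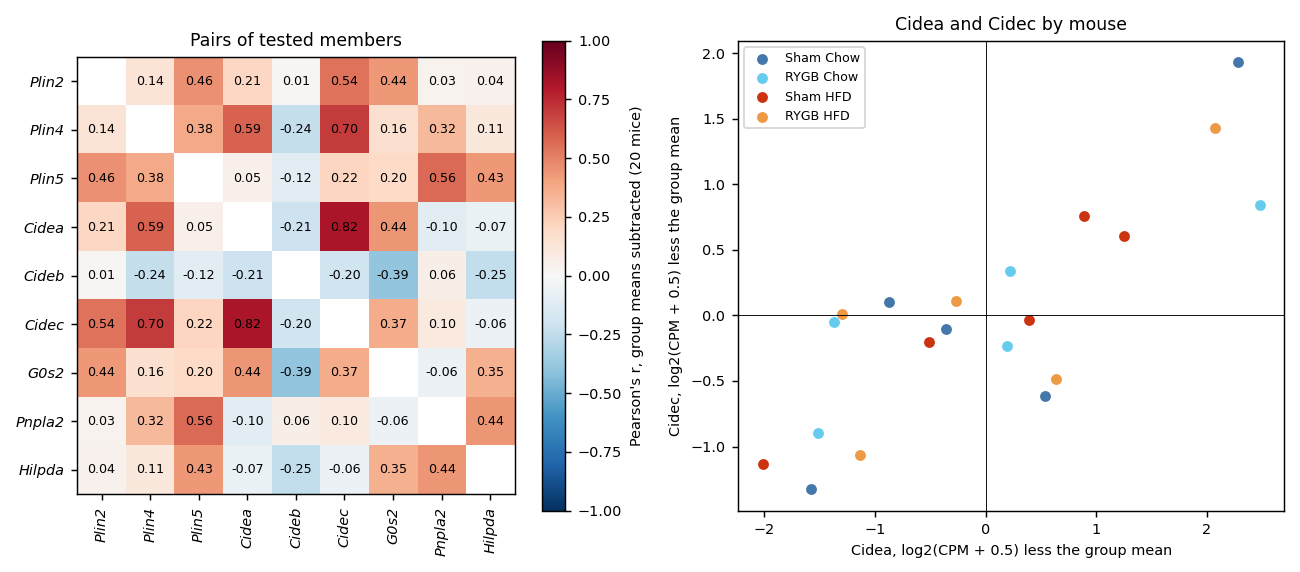
Left, Pearson's r between the tested members over 20 mice after subtracting group means of log2(CPM + 0.5). Right, *Cidea* against *Cidec* by mouse on the same scale, with colours for groups. The pair *Cidea* and *Cidec* has the highest r (0.82), and its points from all 4 groups run from the lower left to the upper right.

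The genes around the members were read from 5 lists. Of 31 other lipid droplet proteins tested, 3 were called higher and 2 lower in Sham Chow vs. Sham HFD, and 5 higher and 7 lower in Sham HFD vs. RYGB HFD (medians -0.059 and -0.093). *Plin3*, the ubiquitous perilipin, had means of 54.6 CPM in Sham Chow and 64.2 in Sham HFD (log2 fold change 0.23, adjusted p = 0.170), and *Plin1*, the perilipin of fat cells, could not be tested. *Bscl2*, which encodes the droplet assembly protein seipin, was higher in Sham HFD than in Sham Chow (0.23, adjusted p = 0.0331) and lower in RYGB HFD (-0.34, adjusted p = 0.00319). *Aup1* was lower in Sham HFD than in Sham Chow (-0.32, adjusted p = 0.00264), and *Nsdhl*, an enzyme of cholesterol synthesis found on droplets, was 2.42-fold higher in RYGB HFD than in Sham HFD (adjusted p = 0.00305).

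Of 23 other lipases and lipolysis regulators, 2 were called higher and 5 lower in Sham Chow vs. Sham HFD, 3 higher and 2 lower in Sham HFD vs. RYGB HFD, and 0 higher and 5 lower in RYGB Chow vs. RYGB HFD. The partners of *Pnpla2* were not called in any contrast: *Abhd5*, its activator, had log2 fold changes from -0.17 to 0.00, *Lipe*, the hormone-sensitive lipase, from -0.25 to 0.34, and *Mgll*, which cleaves the last fatty acid, from -0.20 to 0.47. Members of the carboxylesterase family were called. *Ces3b* was lower in Sham HFD than in Sham Chow (-1.51, adjusted p = 0.000831) and higher in RYGB HFD than in Sham HFD (1.36, adjusted p = 0.00211). In RYGB HFD, *Ces3a* was higher than in Sham HFD (0.56, adjusted p = 0.00135), and *Ces1d* was lower than in Sham HFD (-0.78, adjusted p = 0.00537) and RYGB Chow (-1.06, adjusted p = 0.00242). Reads of these near copies may be split between them, so single carboxylesterases are uncertain.

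Of 21 transcription regulators of droplet genes, 2 were called higher and 3 lower in Sham Chow vs. Sham HFD, and 7 higher and 1 lower in Sham HFD vs. RYGB HFD. *Pparg*, a known driver of *Cidec* and *Cidea* in fat cells and fatty liver, was at a mean of 14.5 CPM in Sham Chow and 22.2 in Sham HFD (log2 fold change 0.62, adjusted p = 0.00571). It was at 14.4 in RYGB HFD (-0.61, adjusted p = 0.00657), and its interaction was not called (-0.55, adjusted p = 0.136). *Pparg* thus had the direction of *Plin4* and *Cidec* in both comparisons that share the Sham HFD mice. So did *Bscl2* above and *Cd36* and *Ucp2* below. The part of *Pparg* in the levels of the members was not tested. *Ppara* (0.54, adjusted p = 0.0643 in Sham Chow vs. Sham HFD) and *Hif1a* (from -0.02 to 0.03) were not called in any contrast. *Srebf1* was higher on HFD in sham mice (0.93, adjusted p = 0.00321) and in RYGB mice (0.80, adjusted p = 0.0342). *Mlxipl*, which encodes ChREBP, was lower in Sham HFD than in Sham Chow (-0.32, adjusted p = 0.0240) and higher in RYGB HFD than in Sham HFD (0.46, adjusted p = 0.00258), as was *Epas1* in the latter (0.79, adjusted p = 0.00128).

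Of 25 PPARA target genes, 5 were called higher and 6 lower in Sham Chow vs. Sham HFD, and 3 higher and 5 lower in Sham HFD vs. RYGB HFD. *Cd36*, the fatty acid uptake protein, was 2.72-fold higher in Sham HFD than in Sham Chow (adjusted p = 0.000229) and 2.88-fold lower in RYGB HFD (adjusted p = 0.000149). *Ucp2* was 2.35-fold higher (adjusted p = 4.75e-05) and 1.74-fold lower (adjusted p = 0.00239) in the same comparisons, and *Acaa1b* was 1.72-fold lower after bypass on HFD (adjusted p = 0.000805). Of 20 SREBP1c and ChREBP target genes, 5 were called higher and 0 lower in Sham Chow vs. Sham HFD, 0 higher and 3 lower in Sham HFD vs. RYGB HFD, and 3 higher and 2 lower in RYGB Chow vs. RYGB HFD. *Scd1*, the main desaturase of liver, was 3.73-fold lower in RYGB HFD compared with Sham HFD (adjusted p = 0.0016), *Me1* 4.14-fold lower (adjusted p = 2.27e-06), and *Elovl5* 1.56-fold lower (adjusted p = 0.00417). In Sham Chow vs. Sham HFD, *Elovl5* was called higher (log2 fold change 0.83, adjusted p = 0.000462). *Scd1* (0.03, adjusted p = 0.966) and *Me1* (0.24, adjusted p = 0.397) were not called there. Both were also lower in RYGB HFD than in RYGB Chow (*Scd1* -1.48, adjusted p = 0.0311, *Me1* -1.64, adjusted p = 6.49e-05). In Sham Chow vs. RYGB Chow, edgeR called 0 genes of any of the 5 lists, and between 1 (other lipases) and 4 (transcription regulators) of a list had an unadjusted p under 0.05. In the interaction, 4 PPARA targets and 1 of the SREBP1c and ChREBP targets were called lower and 0 higher. Of the other lipases 2 were called higher and 0 lower, and of the other lipid droplet proteins 1 higher and 0 lower. Among the transcription regulators 0 were called. Over all tested genes, 2.48% were called higher and 2.58% lower.

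**Figure D5:**
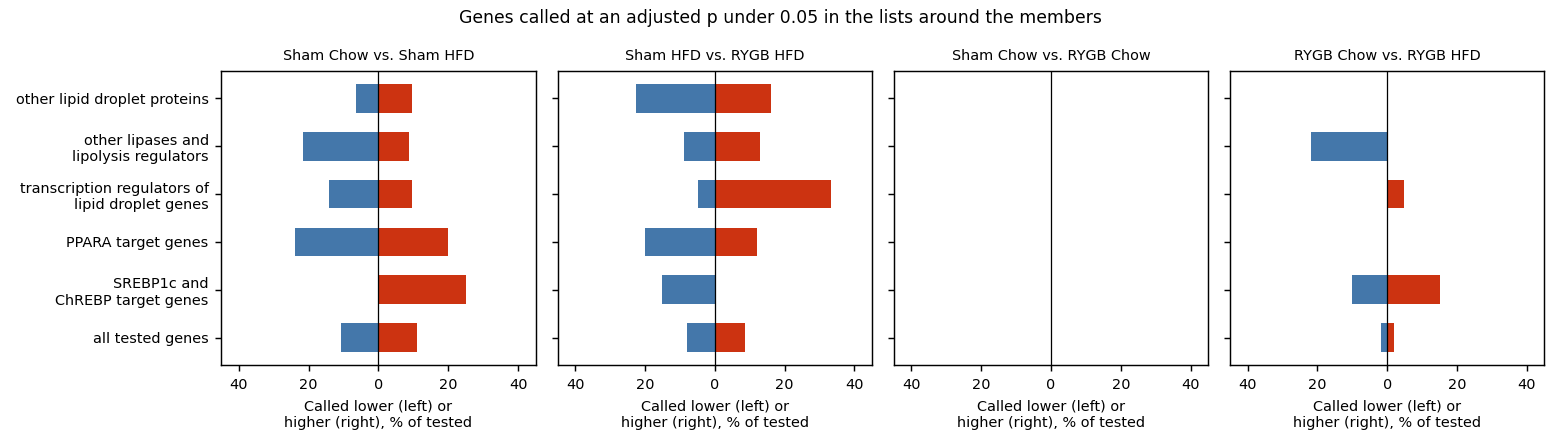
Share (%) of the tested genes of each list called higher (right) or lower (left) at an adjusted p under 0.05 in each contrast, with all tested genes as the last bar. The SREBP1c and ChREBP target genes are called only higher in Sham Chow vs. Sham HFD (5 of 20) and only lower in Sham HFD vs. RYGB HFD (3 of 20). Of those called lower, *Scd1* and *Me1* were not called in Sham Chow vs. Sham HFD. The panel of Sham Chow vs. RYGB Chow is empty for the lists.

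Genes were ranked by Pearson's r over the 20 mice with the mean of the 9 standardized tested members. Members that went opposite ways, such as *Plin4* and *Pnpla2*, offset each other in this mean. A high r is therefore likeness to the mean and not to each member. The highest were *Pex11a* (r = 0.85), *Ormdl3* (0.84), *Ube2a* (0.83), *Nadk* (0.80) and *Nap1l1* (0.79), given as a description with no test. *Pex11a*, a peroxisome proliferation gene, was at means of 175 CPM in Sham HFD, 103 in RYGB HFD, 165 in Sham Chow and 164 in RYGB Chow.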

How the data were processed

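RNA of the liver of 20 mice was measured, 5 per group. Per the labels and the methods, mRNA was enriched with poly-T beads, and the submitters' processing notes name Trimmomatic 0.36, HISAT2 2.1.0 on mm10 and featureCounts 1.5.0-p3. The authors deposited raw counts of reads per Ensembl gene, without normalization. The annotation release, the strand setting and the treatment of multimapping reads are not given in the sources used here. GENCODE M21 gave the symbols and positions and named 54409 of the 54532 genes. Of the 20 columns, 0 were identical.

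From these counts, CPM values were computed with TMM factors. The 12289 genes that reached 2 CPM in 3 or more mice were fitted in edgeR 4.0.16 (R 4.3.3, quasi-likelihood test, biological coefficient of variation 0.181) in a single model of the 4 groups. The tests were two-sided, and p-values were adjusted by Benjamini-Hochberg over all tested genes. A gene was called at an adjusted p under 0.05, and log2 fold changes are of the second group over the first. *Pnpla3* was compared by an exact permutation test on log2(CPM + 0.5). Correlations used 1e+05 permutations within groups, with seed 5. Lengths are unions of annotated exons. The groups were taken from the titles of the samples. Replicates are separate mice.

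The members and the lists (other lipid droplet proteins, lipases and lipolysis regulators, transcription regulators, PPARA targets, SREBP1c and ChREBP targets, and markers of adipocytes, skeletal muscle, macrophages, stellate cells, hepatocytes, endothelium and biliary or gut epithelium) were chosen with earlier results of these data known. Named from the lists that hold no markers were *Plin1*, *Plin3*, *Abhd5*, *Lipe*, *Mgll*, *Pparg*, *Ppara*, *Srebf1*, *Mlxipl* and *Hif1a*. Also named were the 3 genes of each such list with the smallest p among those called in any contrast, the interaction included. The 5 genes most like the mean of the members were named too. *Lamb3*, *Nop9* and *Hdgfl2* were named for their overlap, and some adipocyte markers were singled out after their values were seen.

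Alternatives tried were no filter, a minimum of 5 CPM, RLE factors or library size only, limma-voom (limma 3.58.1), DESeq2 1.42.0, the replicate number as a block, fits restricted to the 2 groups compared, each mouse left out in turn, pseudocounts of 0.1 and 1, and the longest transcript as length. Leaving out Sham HFD replicate 4 and Sham Chow replicate 2 together was added after seeing the data. The fit was tested on simulated data. Permutations and plots were made in Python 3.11.15 (scipy 1.17.1, numpy 2.4.6, matplotlib 3.10.9).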

Additional observations from a re-analysis of the deposited data

Results flagged for a closer look

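Single mice lay far from the other 4 of their group, by Dixon's test, in 8 of 48 groups of 5 values examined. For independent, normally distributed values, chance gives such a result in about 1 of 20 groups. These values were on the linear CPM scale and came from the same mice across genes, so no excess over chance is read from the count. Sham Chow replicate 2 was the highest of its group in *Cidea* (11.0 CPM), *Cidec* (64.0 CPM) and *G0s2* (339 CPM). RYGB Chow replicate 1 stood apart in *Cidea* (7.46 CPM) and *Plin4* (57.8 CPM), RYGB HFD replicate 3 in *Cidec* (26.0 CPM) and RYGB HFD replicate 5 in *Plin5* (143 CPM). Sham HFD replicate 4 held 398 CPM of skeletal muscle markers, and in *Cidea* and *Cidec* it was the lowest of its group (3.35 and 29.2 CPM) and in *Plin4* the highest (98.7 CPM). The part of muscle tissue in these values was not tested.

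Around the members, 7 of the named genes were called for the interaction term, as were 5.06% of all tested genes. These 7 had been named for the smallest p among genes called in any contrast, this interaction included. Their number is therefore no result about the lists. It was below 0 for *Me1* (log2 -1.88, adjusted p = 0.000772), *Cd36* (-1.70, adjusted p = 0.00549), *Ucp2* (-1.20, adjusted p = 0.00677) and *Acaa1b* (-0.82, adjusted p = 0.0218). It was above 0 for *Ces3b* (1.90, adjusted p = 0.00804), *Nsdhl* (1.49, adjusted p = 0.0293) and *Ces3a* (0.61, adjusted p = 0.0261). Of the 9 tested members, 0 were among the genes called in this test with edgeR, and 3 had an unadjusted p under 0.05. The members were chosen by name, with earlier results of these data known, and not by their p in this test. These counts are therefore not comparable.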

How the results depend on the processing

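Over the 9 other settings, 364 of 391 log2 fold changes of the members kept their direction and their side of the threshold, 18 gained a call, 2 lost it and 7 changed direction. Those that changed were uncalled: in Sham Chow vs. RYGB Chow *Cidea* (0.52) and *Cidec* (0.40) with both mice that stand apart left out, *G0s2* with limma-voom (0.25), library size only (0.013), the replicate block (0.12) and both mice left out (0.59), and in the interaction *Pnpla2* with library size only (-0.021). The cause was not tested. With 1 mouse left out, values in Sham Chow vs. RYGB Chow ran from -0.013 to 0.27 for *Plin2*, -0.057 to 0.53 for *Plin4*, -2.46 to 0.52 for *Cidea*, -0.76 to 0.40 for *Cidec* and -0.25 to 0.59 for *G0s2*. In Sham Chow vs. Sham HFD they ran from -0.071 to 0.77 for *G0s2* and -0.028 to 0.36 for *Hilpda*, in RYGB Chow vs. RYGB HFD from -0.13 to 0.41 for *Plin4*, -1.89 to 1.16 for *Cidea*, -0.045 to 0.080 for *Cideb* and -0.12 to 0.21 for *Hilpda*, and in the interaction from -0.13 to 0.38 for *Plin5* and -0.33 to 0.071 for *Hilpda*.

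Members called higher in Sham Chow vs. Sham HFD were 4 with library size only and 1 to 4 without 1 mouse, and members called lower were 2 with DESeq2 and with only the 2 groups, and 1 to 2 without 1 mouse. In Sham HFD vs. RYGB HFD, 1 was called higher with only the 2 groups and with the replicate block, and 0 to 1 without 1 mouse. Members called lower in RYGB Chow vs. RYGB HFD were 1 with DESeq2 and with the replicate block and 0 to 2 without 1 mouse, and in the interaction 1 with limma-voom, 1 with both mice left out and 0 to 3 without 1 mouse. Same-numbered mice did not vary together (correlations from -0.26 to 0.17, with 5 of 30 over 0.1, and 3 mice closest to their own number). No pairing by number was thus seen in expression, and the labels do not say whether the numbers pair mice. Under the replicate block, *Plin4* in Sham HFD vs. RYGB HFD had an adjusted p of 0.0639.

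Over all genes, DESeq2 called 66 higher and 26 lower in Sham Chow vs. RYGB Chow, against 6 and 1, limma-voom 2 and 1, no filter 10 and 3, and only the 2 groups 0 and 0. Without 1 mouse, the counts in Sham Chow vs. RYGB Chow ran from 0 to 11 higher and 0 to 7 lower, with 0 and 0 without Sham Chow replicate 3 or 4 and 10 and 4 without Sham Chow replicate 2. In RYGB Chow vs. RYGB HFD, DESeq2 called 399 and 352 against 245 and 203, no filter 157 and 157, and only the 2 groups 94 and 90. In the interaction no filter called 201 and 246 and DESeq2 439 and 493. With the longest transcript as length, 14 of 32 shares moved by more than the spread between mice, among them that of *Plin2* among perilipins (87.9% to 89.9% in the group means). The depth limits *Pnpla3* and the lowest *Cidea* values.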

Other observations

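*Lamb3*, a laminin chain that lies opposite *G0s2* on chromosome 1 with 0 shared exon bases, was at means of 28.1 CPM in Sham HFD, 7.63 in RYGB HFD, 6.50 in Sham Chow and 6.87 in RYGB Chow, while *G0s2* had means of 156, 97.7, 141 and 138 in the same order. It was named after its values were seen.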
